A study of Mus musculus with 6 samples.

Results

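A set of 239 stretches of open chromatin at the ends of protein-coding genes was seen in every control library of β-cells and in no library of Chd4 knockout β-cells. The assay was ATAC-seq: the enzyme Tn5 inserts adapters where DNA is accessible, and each library has its own list of called peaks. Peaks of all 6 libraries that overlapped by at least 1 bp were merged into 156745 regions. The 239 lost regions were chosen by those peak calls: a peak in 3 of 3 control libraries and in 0 of 3 knockout libraries, on an autosome, at most 1 kb from the start or far end of a gene. They make up 5.91% of the 4043 lost regions on autosomes and lie at 251 genes. Of the 17487 autosomal regions at gene ends 1.37% were lost, and of the 135006 away from them 2.82%. These calls chose the members, so the counts describe them and test nothing.

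The knockout cells came from dispersed islets of Chd4Db mice given tamoxifen, labelled Chd4KO (3 libraries), and the control cells from islets of control mice also given tamoxifen (3 libraries). Both groups were flow-sorted for the red fluorescent protein Tomato as mature β-cells, so both carry Tomato. The driver of the recombinase, the ages of the mice and whether libraries of a group came from separate mice are not stated by the labels. The p-values then measure only the spread between these libraries, which may be technical. Between 119088 and 124125 peaks were listed for a knockout library and between 100109 and 110693 for a control library, so the lost regions stand against more peaks in the knockout. Read depth is unknown. All 8 β-cell markers checked, among them Ins1, Pdx1 and Ucn3, had a peak at a gene end in every library of both groups, with 9825 to 10653 bp in sum in knockout libraries and 11665 to 12753 bp in control libraries. These sums do not overlap, and the part of this in the lost regions was not tested. The markers differed among themselves. Nkx6-1 had 1130, 1219 and 1016 bp in knockout libraries and 1547, 1459 and 1355 bp in control libraries. Ins1 had 1276, 1841 and 1763 bp in knockout libraries and 2150, 2341 and 2219 bp in control libraries. Slc2a2 had 240, 207 and 219 bp in knockout libraries and 255, 265 and 655 bp in control libraries. The groups of these markers do not overlap. Ins2, Mafa and Iapp were lower on average in the knockout, with overlapping groups. Pdx1 had 1724, 1388 and 1642 bp in knockout libraries and 1508, 1501 and 1291 bp in control libraries. Ucn3 had 1290, 1092 and 1114 bp in knockout libraries and 1035, 1047 and 1098 bp in control libraries. Both were higher on average in the knockout, also with overlapping groups. The sums for the 4 δ-, PP- and ε-cell markers did not overlap either, at 817 to 1047 bp in the knockout libraries and 1292 to 1856 bp in the control libraries. Of these, Hhex had 300, 200 and 248 bp in knockout libraries and 1021, 1272 and 1296 bp in control libraries, while Ghrl went the other way, with 688, 637 and 569 bp in knockout libraries and 271, 521 and 319 bp in control libraries. The markers Gcg, Ppy, Cela1, Cpa1, Prss2, Pecam1, Cdh5, Ptprc, Cd68 and Col3a1 had none in any library. Others of the same cell types did have peaks. Spi1, of leukocytes, had 610 to 769 bp in knockout libraries and 609 to 628 bp in control libraries. Kdr, of endothelium, had 456 to 675 bp and 639 to 1010 bp, and Ptf1a, of acinar cells, 200 to 373 bp and 0 to 408 bp. The 3 ductal markers summed to 2011 to 2794 bp and 2092 to 2717 bp. The part of such cells was not tested.

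Chd4 is the ATP-driven helicase of NuRD, a complex that joins nucleosome remodeling to histone deacetylation. It is known both for closing chromatin at genes of other cell types and for acting at active enhancers and promoters. The start of a gene holds its promoter, which in many genes is rich in CpG dinucleotides and stays open in most tissues, whereas the far end, where transcription stops, is less often open. An absent peak is an absent call: the lists hold no signal below the caller's threshold. In sorted bulk cells a region open in fewer cells and one less open in each cell cannot be told apart.

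Promoters are shown for the lost regions that covered the promoter itself, to let the CpG-rich and CpG-poor ones be compared. A lost region covered at least 200 bp of the 300 bp promoter window that RefSeq gives for 17 genes. The naming rule gave Tal2, Syt10 and Npy5r, and Kif26b and Trim12a were added after their values were seen, as a CpG-rich and a CpG-poor example. The 250 bases before each gene's start are given 5′ to 3′ on the gene's strand, from the RefSeq annotation of GRCm38.p6, with CpG dinucleotides in capitals. They lie at chr4:53779451-53779700 (+ strand) for Tal2, chr15:89841861-89842110 (− strand) for Syt10, chr8:66688095-66688344 (− strand) for Npy5r, chr1:178528875-178529124 (+ strand) for Kif26b and chr7:104315496-104315745 (− strand) for Trim12a.
Tal2: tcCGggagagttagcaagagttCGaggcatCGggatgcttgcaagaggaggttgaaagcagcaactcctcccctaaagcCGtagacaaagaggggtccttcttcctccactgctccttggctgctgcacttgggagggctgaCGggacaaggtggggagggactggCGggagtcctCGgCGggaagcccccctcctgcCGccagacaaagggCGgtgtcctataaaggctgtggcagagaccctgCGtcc
Syt10: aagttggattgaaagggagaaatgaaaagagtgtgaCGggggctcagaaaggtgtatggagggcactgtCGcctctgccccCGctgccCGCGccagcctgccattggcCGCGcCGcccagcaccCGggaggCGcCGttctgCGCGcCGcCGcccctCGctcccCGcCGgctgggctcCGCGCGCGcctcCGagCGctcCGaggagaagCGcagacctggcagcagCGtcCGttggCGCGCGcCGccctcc
Npy5r: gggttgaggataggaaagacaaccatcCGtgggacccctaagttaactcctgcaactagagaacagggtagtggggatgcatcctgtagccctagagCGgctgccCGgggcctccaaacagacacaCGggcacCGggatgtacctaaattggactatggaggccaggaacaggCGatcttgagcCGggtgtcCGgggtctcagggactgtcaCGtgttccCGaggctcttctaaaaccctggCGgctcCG
Kif26b: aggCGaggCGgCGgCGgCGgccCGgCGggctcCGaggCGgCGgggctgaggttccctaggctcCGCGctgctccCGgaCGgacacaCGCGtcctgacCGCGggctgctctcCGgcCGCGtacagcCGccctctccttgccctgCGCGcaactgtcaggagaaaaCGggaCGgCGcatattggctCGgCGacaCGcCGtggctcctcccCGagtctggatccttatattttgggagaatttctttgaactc
Trim12a: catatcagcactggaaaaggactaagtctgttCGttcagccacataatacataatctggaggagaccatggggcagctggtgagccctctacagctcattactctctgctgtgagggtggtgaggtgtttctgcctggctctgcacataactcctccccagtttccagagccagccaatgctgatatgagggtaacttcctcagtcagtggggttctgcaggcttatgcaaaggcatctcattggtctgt

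The printed stretch of Kif26b holds 32 CpG, as does that of Syt10, against 12 at Npy5r, 11 at Tal2 and 1 at Trim12a. The lost regions cover all 250 printed bases at Tal2 and Trim12a, 230 at Npy5r, 223 at Syt10 and 220 at Kif26b. Over the whole 300 bp windows, the 18 windows of the 17 genes held a median of 17 CpG (range 1 to 38). For comparison, 11714 autosomal windows under a region called in all 6 libraries held a median of 22, 7083 windows without a region in any library a median of 3, and all 20085 windows a median of 14. The 18 windows had a median GC content of 63.8%. Both CpG-poor and CpG-rich promoters were thus among those with a lost region. The 2 windows of Cntn5 overlap and share most of their sequence.

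**Figure D1:**
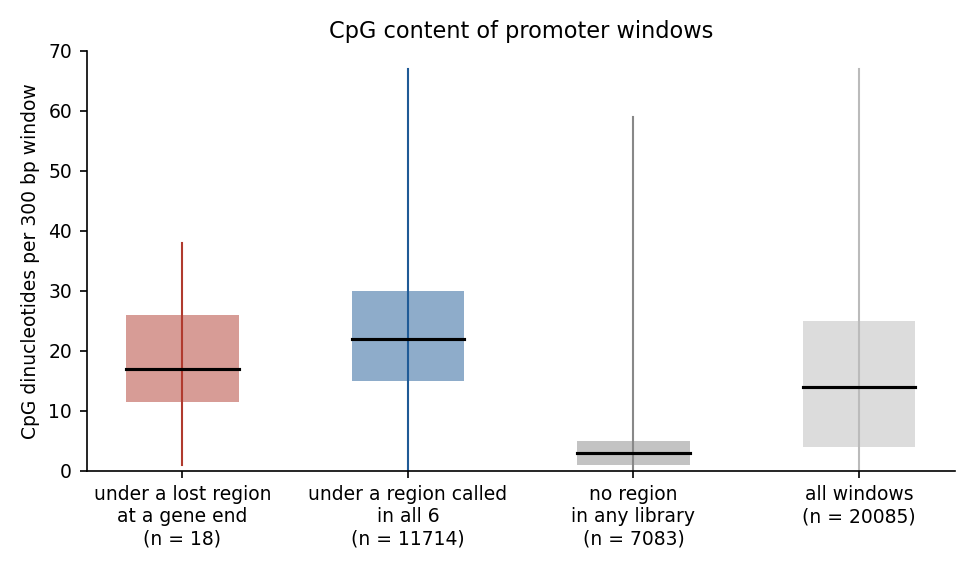
CpG dinucleotides per 300 bp promoter window (vertical axis) for windows covered by at least 200 bp by a lost region at a gene end, windows covered likewise by a region called in all 6 libraries, windows with no region in any library, and all autosomal windows. Boxes span the middle 50% of windows, the black line is the median and the thin line the full range; the medians are 17, 22, 3 and 14.

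Motif matches were counted on both strands of the same windows and are a description of the letters only. The GC box core GGGCGG, a site type bound by Sp factors, was found in 13 of the 18 windows (72.2%), in 68.7% of windows under regions called in all 6 libraries and in 47.0% of all windows. CCAAT, the NF-Y box, was found in 9 of 18 (50.0%) against 38.0% and 38.1%. The E-box CANNTG, which includes CAGATG, was found in 14 of 18 (77.8%) against 62.0% and 68.7%. The ETS core CCGGAAG was in 0 of 18, against 18.5% and 11.9%. TATAAA was found at Tal2 alone among the 18, against 5.72% of windows under regions called in all 6 libraries and 12.7% of all windows. The E-box form CAGATG had no match in the 18 windows and was in 14.6% of all windows. The homeobox core TAATTA had none, against 4.48% of all windows. The cyclic AMP element TGACGTCA had none, against 2.30% of all windows. The core GTTGCC, bound by Rfx factors, had none, against 12.2% of all windows. The nuclear receptor core TGACCT had none, against 14.7% of all windows. TGANTCA, the AP-1 site, was in 2 of the 18 and in 7.06% of all windows. The forkhead core TGTTTA was in 2 and in 11.5% of all windows. TGCTGA, the core bound by Maf factors, was in 4 and in 17.9% of all windows.

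Peaks over the lost regions were among the weaker ones of the control lists. Strength was ranked within each list by the authors' −log10 q, with 100 as the strongest. The median percentile of the 239 regions was 21.7, 25.1 and 21.9 in control libraries 1 to 3, and 3.35%, 4.60% and 2.93% of them stood above the middle of their list. Regions at gene ends that were called in all 6 libraries had median percentiles of 89.6, 90.2 and 89.8 in the same lists. The authors' fold enrichment at the summit had medians of 3.70, 3.91 and 3.94 for the lost regions. The regions above the middle of all 3 lists numbered 3, Ndufs5 and Sec11a among them, and 100 regions fell under the 10th percentile in at least 1 list. Of the 239, 234 had a −log10 q of at least 3 in all 3 control libraries, where the lowest value listed was 1.31 to 1.35. That threshold stood low in the lists: in control library 2 a −log10 q of 2.75, at Slc25a3, was at percentile 0.77. Nearly all peaks listed there passed it, so the count does not set the lost regions apart.

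Lost regions at gene ends had widths close to those of lost regions elsewhere. Their peaks covered a median of 303, 336 and 306 bp in control libraries 1 to 3, and the 3804 lost regions away from gene ends covered 302, 332 and 298 bp. The mean difference was 4.33 bp, ranging from 1 to 8 bp, with the same sign in 3 of 3 libraries (two-sided exact permutation test on the paired medians, p = 0.25, the smallest possible with 3 libraries; adjusted p = 0.5 over 10 such comparisons). That difference depended on the peaks used: it was 71.2 bp with the 50000 strongest peaks of each library, which keep 2 of the 239 regions, and -1.5 bp without control library 1. Against the 1394 lost regions between genes alone the difference was 15.3 bp (range 11 to 19; exact permutation p = 0.25, adjusted 0.5). In strength they stood 2.64 percentile points below the lost regions between genes (range -5.02 to -1.36; exact permutation p = 0.25, adjusted 0.5). Against all lost regions elsewhere the strength difference was -1.48 percentile points (range -3.70 to 0; exact permutation p = 0.5, adjusted 0.56). Against the 2410 lost regions within genes the differences were -4.83 bp and -0.20 percentile points, with both signs among the libraries (exact permutation p = 0.5 and 1). No test of 3 libraries can pass the 0.05 threshold.

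**Figure D2:**
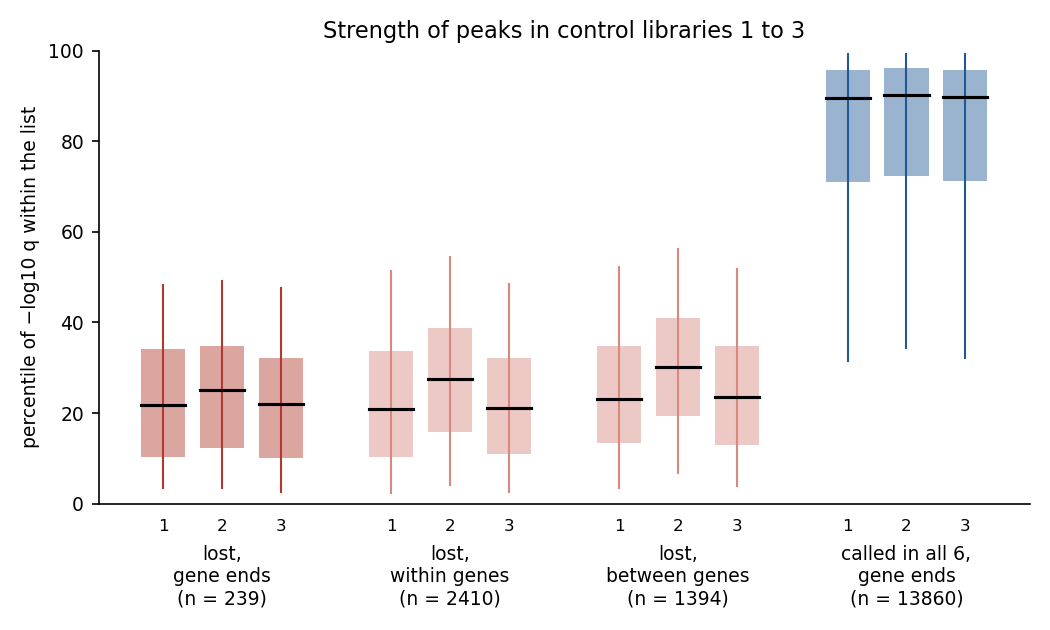
Percentile of −log10 q within the list (vertical axis, 100 strongest) of the strongest peak per region, in control libraries 1, 2 and 3 as numbered under each box. Boxes span the middle 50% of regions, thin lines run from the 5th to the 95th percentile and black lines mark medians; the 3 kinds of lost region overlap, at medians of 20.9 to 30.1, well below regions called in all 6 libraries.

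RefSeq gave the strand, and so told the ends apart, for 193 of the 239 regions: 106 lay at a gene start and 87 at a far end, so 54.9% of these were at starts. Among regions at gene ends that were called in all 6 libraries 86.2% of those with a known end were at starts. Among gained regions, called in 3 of 3 knockout and 0 of 3 control libraries, it was 48.9%. Among the 2787 with any other pattern of calls it was 52.8%. A share near that of the lost regions was thus common to regions not called in all 6 libraries. Of the 106 at starts, 27 lay over the first base of the gene, 34 upstream of it and 45 inside the gene. Of the 87 at far ends, 6 lay over the last base, 40 beyond it and 41 inside. The difference in width between the 2 kinds was smaller than the spread between libraries, with 326 ± 38.0 bp at starts and 299 ± 3.61 bp at far ends (means of medians ± SD, n = 3; exact permutation p = 0.5, adjusted 0.56).

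At 151 of the 239 regions no knockout library had a called peak within 1 kb of the same gene end. At 177 no region called in all 6 libraries lay there. The rule itself bars a knockout peak over the lost region. The share without a knockout peak was not taken over all gene ends, so nothing is read from the 151. The nearest knockout peak was 1701 bp away at the median, with quartiles of 506 and 5784 bp. At gene starts the pattern was split. At 44 of 106 the start kept a region called in all 6 libraries, and 26 had a knockout peak within 200 bp. At far ends 9 of 87 (10.3%) kept such a region, and none had a knockout peak within 200 bp. Far ends seldom hold such a region in general: among all autosomal genes with a known start, 14.2% had one at the far end and 61.6% at the start.

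**Figure D3:**
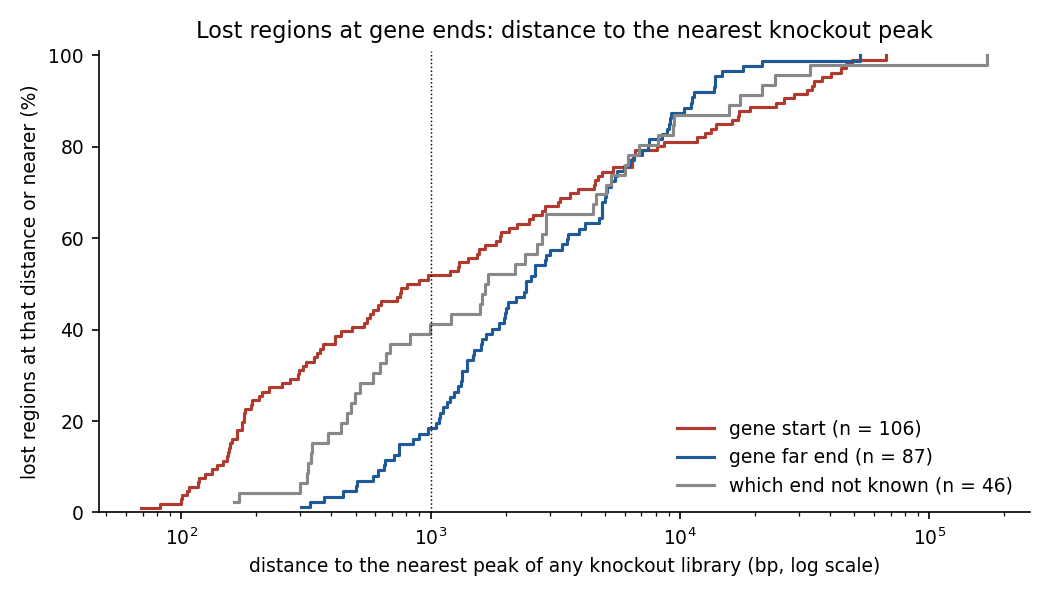
Share of lost regions (vertical axis, percent) whose nearest peak in any knockout library lies at a given distance or nearer (horizontal axis, bp, log scale), for gene starts, gene far ends and ends that could not be told apart; the dotted line marks 1 kb. Of the 106 at starts 55 have a knockout peak within 1 kb, against 16 of the 87 at far ends.

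Where a region called in all 6 libraries remained beside the lost one, its size was close between genotypes. The 63 such neighbors at the same gene end had median covered lengths of 875, 892 and 836 bp in knockout libraries 1 to 3, and 873, 821 and 822 bp in control libraries 1 to 3. The ranges of the genotypes overlap, and the means were 868 ± 28.7 bp for the knockout and 839 ± 29.7 bp for the control (SD, n = 3 each). All 13860 regions of this kind at autosomal gene ends averaged 957 ± 14.8 bp in knockout libraries, against 972 ± 10.7 bp in control libraries. The lost regions without such a neighbor covered 327 ± 14.7 bp and those with one 286 ± 19.8 bp in the control libraries, with the same sign in 3 of 3 (exact permutation p = 0.25, adjusted 0.5). Strength went the other way. Those without a neighbor differed from those with one by -4.44 percentile points (range -5.68 to -3.72; exact permutation p = 0.25, adjusted 0.5).

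Genes that lost a region at the far end mostly had an open start in both genotypes. Of 95 such genes with a known strand, 80 (84.2%) had a region called in all 6 libraries at the start, against 61.6% of the 16457 autosomal genes with a known start. The share was not taken for genes with a gained or other region at the far end. Whether the difference is particular to lost regions was thus not tested. The 84 regions at those starts had median covered lengths of 1014, 1024 and 1026 bp in knockout libraries 1 to 3, and 993, 1046 and 1006 bp in control libraries 1 to 3. The 3 knockout values lie within the range of the control values.

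**Figure D4:**
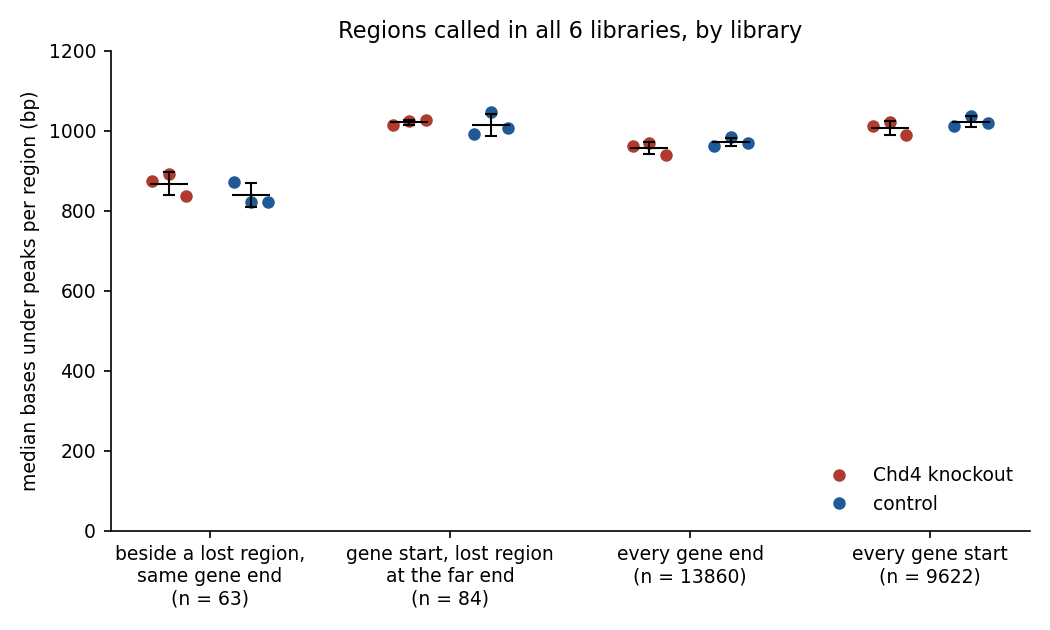
Median bases under peaks per region (vertical axis, bp) for regions called in all 6 libraries, with 1 point per library and the mean ± SD (n = 3) in black, for knockout and control. Shown are regions beside a lost region at the same gene end, regions at the start of genes with a lost region at the far end, and every such region at gene ends and at gene starts; knockout and control overlap in all 4.

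The remaining open chromatin around these genes was measured as well. For each gene the bases under regions called in all 6 libraries were summed over the gene and 10 kb on either side, which leaves the lost regions out, and compared on the log2(covered length + 300 bp) scale with limma. Of 17250 genes tested 5.98% passed at an adjusted p under 0.05, 3.56% higher and 2.42% lower in the knockout. Of the 251 genes with a lost region at an end 228 passed the filter on low values, and 5 were called higher and 5 lower. The same libraries chose the genes, so nothing is read from that count. Their median log2 fold change was -0.01 with quartiles of -0.08 and 0.06, and that of all genes tested was 0.00 with quartiles of -0.07 and 0.06. With the replicate number as a block 2 genes in all were called, neither of them among these 228, against 1031 without it. Leaving out a single library, whichever of the 6, left 165 to 554 calls, the fewest without knockout library 1 and the most without knockout library 3. The filter removed 23 genes, 22 of which had no region called in all 6 libraries in this stretch. A gained region lay in the same stretch at 103 of the 239 regions and another lost region at 43. The same counts were not taken around all genes, so nothing is read from them.

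The strongest lost region lay over the far end of Ndufs5, a subunit of respiratory complex I (chr4:123712235-123713097). Its peaks covered 846, 718 and 718 bp in control libraries 1 to 3, with a fold enrichment of 13.4, 14.5 and 15.1, and the nearest knockout peak was 1476 bp away. Next came the far end of Sec11a, the catalytic subunit of the signal peptidase that trims secreted proteins, with 718, 690 and 737 bp at chr7:80914391-80915127. Ndufs5 was widest in control library 1, and Sec11a varied little between the control libraries. The regions of Ndufs5 and Sec11a were also the only ones of the 239 that were lost when the 50000 strongest peaks of each library were used.

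Others of the 12 strongest lay at genes of varied kinds. Dppa3, a maternal factor of the early embryo, had 825, 700 and 530 bp inside the gene. Copg1, a coatomer subunit of Golgi vesicles, had 269, 309 and 317 bp upstream of its start, 533 bp from a region called in all 6 libraries. The far end of Cbfa2t2, a transcriptional corepressor, had 305, 324 and 316 bp, with a peak of knockout library 2 at 618 bp and none of the other two nearer than 9463 bp. These 3 genes kept other regions called in all 6 libraries within 10 kb.

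Ppp1r3g, a glycogen-targeting subunit of protein phosphatase 1, carried the widest lost region (chr13:35968100-35969548). It covered 1175, 1304 and 1321 bp in control libraries 1 to 3, inside the gene and 840 bp from its far end, with the nearest knockout peak 9154 bp away. No region called in all 6 libraries lay within 10 kb of this gene. The copper chaperone gene Cox17 had 393, 419 and 494 bp 860 bp outside its span. The region of Vmn2r2, a pheromone receptor gene, had 873, 957 and 452 bp inside the gene near its start, and control library 3 was the lowest there. Cryzl2 (361, 428 and 335 bp) and Flrt2, an adhesion gene (297, 286 and 304 bp), had theirs upstream of the start.

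**Figure D5:**
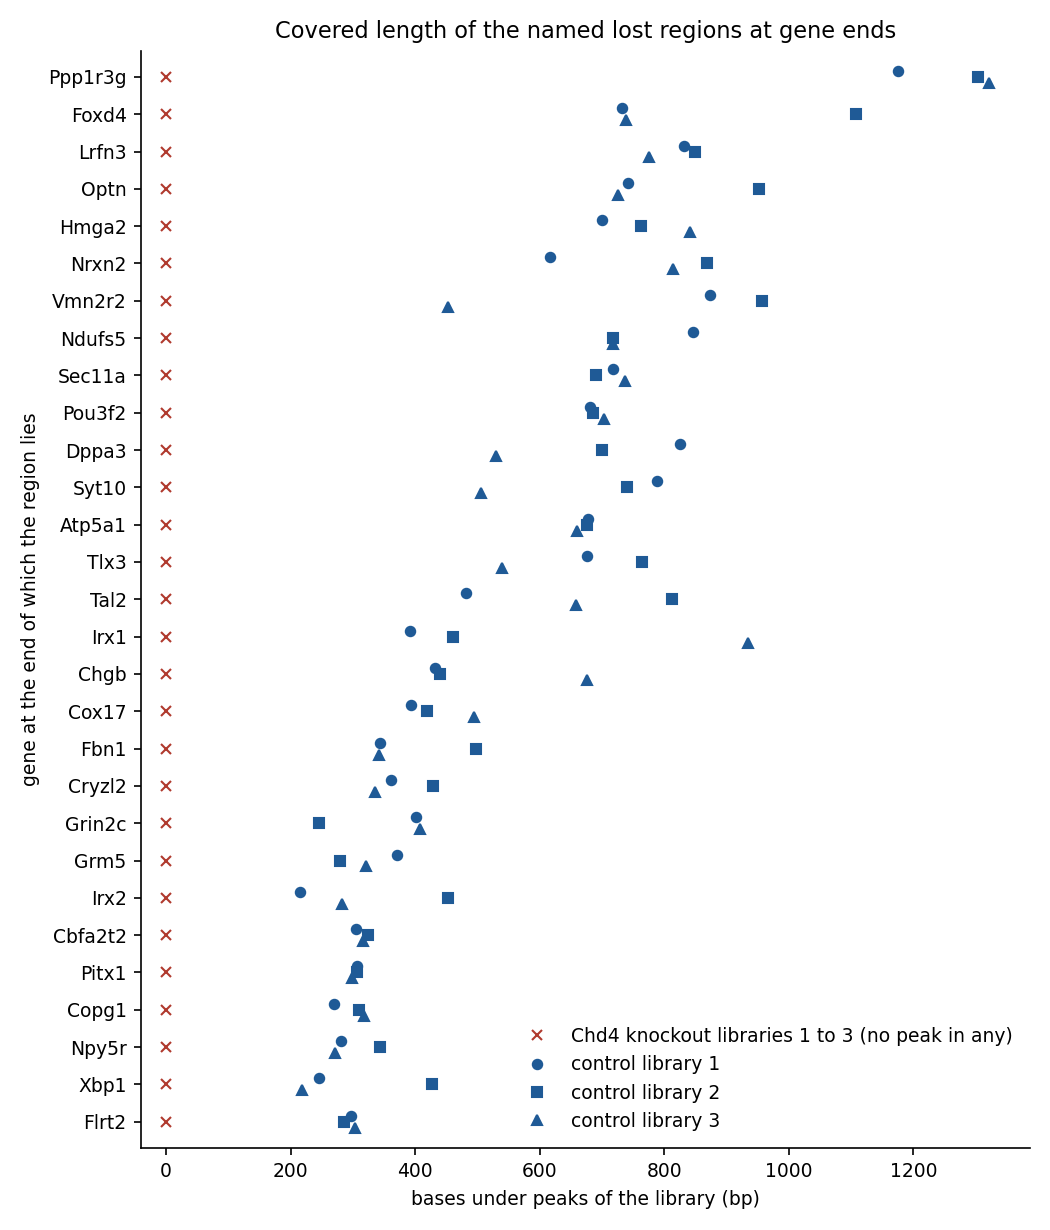
Bases under peaks (horizontal axis, bp) of the lost regions that are the 12 strongest, the 6 widest or at a gene of a listed group, with 1 row per gene and 2 such regions not shown. Crosses at 0 stand for the 3 knockout libraries, which have no peak there by the rule, and blue symbols for control libraries 1 to 3; the control values spread from 215 to 1321 bp and differ most between libraries at Irx1 and Vmn2r2.

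Developmental transcription factor genes held 5 of the lost ends, of 103 listed on autosomes (4.85%), while 1.21% of all 20665 autosomal genes had one. The list was not particular to loss: 9 of the 103 had a gained region at an end, as had 623 of the 20665. These small counts were not tested. Tal2, a helix-loop-helix factor of the midbrain and of some leukemias, had its promoter under the lost region (chr4:53779394-53780343), with 481, 813 and 658 bp in control libraries 1 to 3. It was the only region within 10 kb of the gene, and the nearest knockout peak lay 19000 bp away. The forkhead gene Foxd4 had 732, 1108 and 738 bp inside its short gene, again the only region within 10 kb. At Pou3f2, a POU factor of neurons, 680, 685 and 703 bp were lost 853 bp upstream of the start, while a region called in all 6 libraries lay 297 bp from the lost one. Tlx3, a homeobox factor of sensory neurons, had 676, 765 and 540 bp toward its far end, and Pitx1, a homeobox factor of pituitary and hindlimb, 307, 307 and 298 bp inside its span.

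Neurotransmitter receptor genes held 4 of 54 (7.41%) and neuronal genes 2 of 37 (5.41%). A gained region stood at an end of 2 of the 54 and of 2 of the 37. These small counts were not tested either. Grm5, a metabotropic glutamate receptor, had 370, 280 and 321 bp. Grin2c, a subunit of the NMDA receptor, had 402, 246 and 407 bp near its start, where knockout library 1 had a peak 176 bp away and the nearest peaks of knockout libraries 2 and 3 lay 3465 and 3462 bp away. The promoter of Npy5r, a receptor of neuropeptide Y, had 281, 343 and 271 bp at percentiles of 1.29, 1.60 and 9.07, among the weakest calls. The start of Syt10, a synaptotagmin, had 789, 740 and 506 bp, with the nearest knockout peak 33849 bp away, and Nrxn2, a presynaptic adhesion gene, had 617, 868 and 814 bp inside its span.

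Of 14 α-cell genes on autosomes, 2 held a lost end, the homeobox genes Irx1 and Irx2, and 0 a gained one, small counts that were not tested. The region over an end of Irx1 covered 392, 461 and 935 bp in control libraries 1 to 3, so control library 3 stood well above the other two, and a knockout peak lay 665 bp from it. The one over the start of Irx2 covered 215, 453 and 282 bp, with percentiles of 4.26, 31.9 and 22.5. Over the regions called in all 6 libraries near Irx2, covered length was 2331, 2317 and 2382 bp in knockout libraries 1 to 3 and 2510, 2390 and 2495 bp in control libraries 1 to 3, scaled to the mean total. The groups do not overlap there, at a log2 fold change of -0.06 that did not pass limma's threshold (adjusted p = 0.30). At Irx1 the same measure was 504, 319 and 383 bp in knockout libraries and 285, 428 and 289 bp in control libraries, overlapping groups that differed by 0.14 on the log2 scale (adjusted p = 0.54 by limma). The α-cell markers, 5 with both Irx genes among them, had peaks at gene ends in every library at 3 of 5 genes in each genotype, with 2331 to 2507 bp in sum in knockout libraries and 2575 to 3507 bp in control libraries, sums that include the lost Irx regions. Gcg had no peak at its ends in any library, and the part of α-cells in these regions was not tested.

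None of 30 β-cell transcription factor genes and 1 of 45 insulin secretion and processing genes (2.22%) had a lost end, against 1.21% of all autosomal genes, counts too small to set apart from that share. That gene was Chgb, which encodes the granule protein chromogranin B, with 432, 440 and 676 bp beyond its far end. It lay 715 bp from a region called in all 6 libraries. A gained region stood at an end of 2 of the 45 genes and of 0 of the 30. Xbp1, the transcription factor of the unfolded protein response, had 245, 427 and 218 bp 936 bp beyond its far end. Its regions called in all 6 libraries overlapped between genotypes, at 3016, 3028 and 2936 bp in knockout libraries and 3038, 2957 and 2928 bp in control libraries. Atp5a1, the α subunit of ATP synthase, had 678, 676 and 660 bp, with a peak of knockout library 3 at 319 bp. Fbn1, the fibrillin of connective tissue, was the only one of 15 mesenchymal genes, with 344, 497 and 342 bp at percentiles of 10.2, 5.88 and 7.21. More of these 15 genes, 3, had a gained region at an end. The 3 mesenchymal markers summed to 1091 to 1270 bp at gene ends in knockout libraries and 693 to 710 bp in control libraries, with Col3a1 at 0 in all and Pdgfrb at 0 in the control libraries only. Their part was not tested. No gene of the acinar, ductal, endothelial, leukocyte, cell cycle, chromatin, housekeeping, dedifferentiation or δ-, PP- and ε-cell lists had a lost end. The share per list was not tested.

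Of the 108 genes whose start held a lost region, 52 had no knockout peak within 1 kb of that start. At 8 of them the whole gene with 10 kb on either side held no knockout peak: Cd300ld3, Cyp2j13, Foxd4, Mmp12, Nxph2, Olfr1206, Tal2 and Trim12a, of which all but Foxd4, Tal2 and Trim12a were chosen for naming after their values were seen. At Cd300ld3, Cyp2j13, Foxd4, Mmp12, Olfr1206 and Tal2 the lost region was the only region of any library in that stretch. No such counts were taken over all genes, so nothing is read from the 52 or the 8. Trim12a, a member of a cluster of tripartite motif genes, lost a region at both ends. The one over its promoter had 518, 453 and 1031 bp in control libraries 1 to 3 and the one at the far end 310, 235 and 278 bp. The nearest knockout peaks lay 37091 bp and 52573 bp from them. Hmga2, an architectural chromatin factor of embryonic cells, had 700, 763 and 841 bp over its start (chr10:120475713-120476553), with the nearest knockout peak 46393 bp away, though 1 region called in all 6 libraries lay within the gene's own surroundings.

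Paired lost regions also stood at 3 other genes. Kif26b, a kinesin, lost 2 regions upstream of its start, 342 bp apart, with 400, 516 and 517 bp in the nearer one and 231, 240 and 201 bp in the other. A region called in all 6 libraries lay 155 bp from the outer one. Slc25a3, the mitochondrial phosphate carrier, lost 2 at its far end, of 314, 416 and 370 bp and of 303, 200 and 306 bp. Adm, the gene of the vasodilator peptide adrenomedullin, lost 2 inside the gene, of 214, 352 and 215 bp and of 378, 877 and 307 bp, the second at percentiles of 4.12, 10.7 and 0.45. The remaining wide ones, Optn, an autophagy receptor (742, 952 and 726 bp at the far end), and Lrfn3, a synaptic adhesion gene (832, 850 and 776 bp near the start), were single.

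At the limits of the rule, the members just inside 1 kb were Gnl3 (998 bp), Foxj2 (997 bp) and Nrcam (996 bp), with mean percentiles of 40.4, 19.5 and 33.2. Just outside were lost regions near Arl5a (1017 bp), Cyp1b1 (1020 bp) and Sycp2 (1031 bp), with mean percentiles of 15.5, 2.74 and 26.6. The weakest of the 239 were those of Cnpy2, Shisal2b, Npr3 and Osr2, with mean percentiles of 1.23 to 3.43. Of the 239 regions 16 lay at the ends of more than 1 gene, such as Hoxb7 with Hoxb8 and Plcb3 with Ppp1r14b, so those genes share their region. By chromosome the regions ranged from 26 on chromosome 2 to 5 on chromosome 17.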

How the data were processed

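ATAC-seq libraries of 3 Chd4KO and 3 control β-cell samples were compared through 1 deposited narrow peak list each. The peak names inside the deposited files say that MACS2 was run on shifted cutting sites. Coordinates are on mm10, per the submitters' processing notes. No source used here gives the aligner, version, settings or read filters. Each peak has a score, a fold enrichment ratio, a −log10 p, a −log10 q and a summit position, all the authors' own per the deposited files. The −log10 q and fold enrichment ranked and described peaks inside 1 list, and summits served 1 alternative. There are no counts, so depth and intervals from it are unknown.

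Regions, gene ends (RefSeq, GRCm38.p6, 21887 protein-coding genes, strand known for 17492) and covered lengths were computed with Python 3.11.15. Medians per control library were compared by exact permutation (SciPy 1.17.1). The gene surroundings went through limma 3.58.1 under R 4.3.3 (trend, scaling to the mean total, 300 bp pseudocount, mean covered length of at least 300 bp), after a test on simulated data. Named regions are the 12 strongest, 6 widest, all at listed genes, the 3 nearest to either side of the 1 kb limit, the 4 weakest and all at genes with more than 1; others are marked, and 2 regions the rule names are not reported here. Members, lists and tests were chosen with earlier results of these data known. The 2 lost regions at gene ends off the autosomes were left out. Alternatives changed the overlap, peak threshold, gene-end distance, libraries, scaling, pseudocount, filter and block.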

Additional observations from a re-analysis of the deposited data

How the results depend on the processing

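The number of lost regions at gene ends was 146 with gene ends of 500 bp, 392 with 2 kb and 693 with 5 kb, and 278 to 357 with 1 library left out. It was 298 with peaks over at least 50% of the region, 242 with a −log10 q of at least 3, 319 with regions from summits and 330 with the 50000 strongest peaks. Of the 239 regions, 199, 234, 219 and 2 were still lost under these last 4. The 50000 strongest peaks keep the upper part of each list, where few of the 239 stand. The share with a region called in all 6 libraries at the same end, an alternative added after seeing the data, was 25.9% and became 19.8% with the 50% overlap, 14.8% with the 50000 strongest peaks, 12.3%, 41.8% and 63.4% with gene ends of 500 bp, 2 kb and 5 kb, and 23.4% to 31.1% with 1 library left out. The share at gene starts was 51.7% with gene ends of 500 bp, 58.7% with 2 kb, 55.4% with a −log10 q of at least 3, 62.0% with the 50000 strongest peaks and 51.6% to 58.9% with 1 library left out; with regions from summits 169 of 258 lay at starts. The width difference from other lost regions, 4.33 bp, became 71.2 bp with the 50000 strongest peaks, 43.5 to 52.5 bp by library with the 50% overlap, 11.5 bp with a −log10 q of at least 3, 10.2 bp with gene ends of 500 bp, -0.67 bp with gene ends of 2 kb and -1.5 to 16.5 bp with 1 library left out, negative without control library 1. The strength difference was 0.51 percentile points with the 50000 strongest peaks, 0.095 with gene ends of 2 kb, and -1.35 to -0.19 with 1 library left out. The cause of these reversals was not tested. Genes called by limma numbered 1031, and 3078 with all regions in the surroundings, where the lost and gained regions count, 2 with the replicate block and 165 to 554 with 1 library left out. Correlations of deviations between groups were 0.01, 0.07 and -0.03 for equal replicate numbers 1 to 3. For unequal numbers they ranged from -0.107 to 0.086. These values cannot show whether the replicate numbers pair the samples. Without scaling 734 genes were called. Precision is limited by 3 libraries per group and unknown depth.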
